A study of Tupaia belangeri with 15 samples.

Results

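DSCAM, DSCAML1, SDK1, SDK2 and the contactins CNTN1 to CNTN6 encode adhesion proteins of the immunoglobulin superfamily, and these 10 genes were followed through the retinal neurons of the tree shrew (TS, Tupaia belangeri). They were chosen by gene name, and all 10 were found by name among the 83605 features of the count matrices. The study profiled nuclei of 15 TS retinas by droplet single-nucleus RNA sequencing, 5 from infant, 5 from mature and 5 from senile animals, with no treatment or genetic change in any group. The senile animals came from another institute than the infant and mature animals, so age and source cannot be told apart. Each retina is a separate sample in the labels. The p-values of stage within a class or subtype measure the spread between these retinas. Those between classes or subtypes, and of class differences in stage, measure the spread left after the retina is held as a block. The exact tests use differences paired by retina.

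The inner plexiform layer is the synaptic layer in which the axons of bipolar cells (BCs), the processes of amacrine cells (ACs) and the dendrites of retinal ganglion cells (RGCs) meet, and it is divided into sublaminae. DSCAM and DSCAML1, the Down syndrome cell adhesion molecules, and the sidekicks SDK1 and SDK2 are transmembrane proteins that bind copies of themselves on neighbouring cells. In other vertebrates they are known for steering neurites to sublaminae and for keeping processes of like cells spaced. Contactins are held on the outer face of the membrane by a lipid anchor and work with partners in the same or the opposite membrane, among them the CNTNAP proteins, the L1 family and receptor tyrosine phosphatases.

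The matrices held 120437 barcodes, of which 119765 passed the limits on genes and mitochondrial UMIs, and library totals ran from 13429873 to 58734300 UMIs. Nuclei were placed in classes and subtypes by marker genes that include none of the 10 members, which gave 25121 BCs, 33489 ACs and 5389 RGCs. Of these, 34086 entered 20 subtypes and 29913 stayed without one. Of the markers, CABP5, GAD2, SLC32A1 and POU4F2 were at 0 in the classes they should mark. The 8 BC markers summed to 15788 to 25906 CPM in BCs, CPM being the UMIs of a gene scaled to 1000000 UMIs of the group. In RGCs the 8 RGC markers summed to 857 to 2442 CPM and the BC markers to 1305 to 2001 CPM, most of it CA10 and GRIK1, while TRPM1 was at 4.96 CPM. The deposited files fell into a Cell Ranger 6.1.2 and a Cell Ranger 7.0.1 set by their headers, and RGCs were fewer in the second set, at 29 to 224 against 485 to 718 nuclei per retina. Libraries shared at most 0.405% of the barcodes of the smaller library. All levels below are CPM of the UMIs summed over the nuclei of a retina and a cell group, given as mean ± SD over retinas, and a level is compared only within a gene.

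Across the classes, the DSCAM and SDK genes marked inner retinal neurons unevenly. DSCAM was at 2372 ± 327 CPM in BCs, 1863 ± 357 in RGCs and 1518 ± 212 in ACs (n = 15), against 176 ± 67.4 in cones and 103 ± 42.8 in Müller cells. Horizontal cells (HCs), at 1997 ± 523 CPM of DSCAM, lay within the range of the inner neurons. DSCAML1 was at 753 ± 157 CPM in BCs, 321 ± 95.6 in ACs and 160 ± 42.5 in RGCs. Its level in the 905 nuclei gated as rods was higher still, at 2938 ± 638 CPM (n = 14). SDK1 was highest in ACs among the inner neurons, with 600 ± 111 CPM in ACs, 311 ± 93.1 in BCs and 193 ± 58.4 in RGCs. SDK2 was low in all 3 inner classes, at 37.5 ± 8.62 CPM in BCs, 29.9 ± 6.57 in ACs and 22.9 ± 5.72 in RGCs, and was higher in HCs (150 ± 65.1) and Müller cells (85.7 ± 25.2).

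The contactins divided the same classes in another way. CNTN4 was highest in BCs, at 4723 ± 503 CPM against 1182 ± 207 in ACs and 631 ± 74.7 in RGCs. CNTN5 was at 3028 ± 530 CPM in ACs and 1838 ± 253 in RGCs, and at 115 ± 86.8 in BCs. CNTN3 was at 623 ± 131 CPM in RGCs, 327 ± 59.3 in ACs and 91.3 in BCs. CNTN6 was at 152 ± 28.8 CPM in ACs, 63.7 ± 11 in RGCs and 47.9 ± 19.9 in BCs. CNTN2, the axonal contactin TAG-1, stayed low everywhere, at 35 ± 12.6 CPM in RGCs, 17.4 ± 6.16 in ACs and 5.91 in BCs. CNTN1 varied least among the inner classes, from 464 ± 59 CPM in ACs to 659 ± 73.4 in RGCs, and its highest class was Müller cells at 1886 ± 218 CPM.

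Each inner class was tested against the mean of the other 5 of 6 classes (cones, BCs, HCs, ACs, RGCs and Müller cells) with edgeR's quasi-likelihood test and Benjamini-Hochberg adjustment over 16895 features. Of the 30 tests of members, 27 passed, 23 of them higher and 4 lower, where 67.4% of all feature tests passed. The largest differences on the log2 scale were CNTN5 in ACs (4.02 ± 0.13, SE), CNTN6 in ACs (3.44 ± 0.09), CNTN2 in RGCs (3.32 ± 0.14), CNTN4 in BCs (3.30 ± 0.09) and DSCAML1 in BCs (3.14 ± 0.15). CNTN5 in BCs (-1.84 ± 0.19), SDK2 in RGCs (-0.49), CNTN3 in BCs (-0.36 ± 0.12) and CNTN4 in RGCs (-0.28) were the 4 lower ones. The 3 tests that did not pass were SDK2 in ACs (-0.10, adjusted p = 0.415), DSCAML1 in RGCs (0.33, adjusted p = 0.0898) and CNTN2 in BCs (0.36 ± 0.18, adjusted p = 0.0722). The median log2 difference of the members was 1.18 in BCs, 1.65 in ACs and 1.23 in RGCs, beside 0.01, 0.04 and 0.01 over all features.

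Within the classes, the members differed between many of the subtypes. The subtypes are named by the genes that gated them, and each was tested against the mean of the other subtypes of its class. In all, 129 of 186 member tests passed, 68 higher and 61 lower, where 26.4% of all feature tests passed. By class this was 30 of 36 tests in BCs (34.5% of features), 71 of 90 in ACs (32.8%) and 28 of 60 in RGCs (12.4%). CNTN2 passed the filter on low counts in RGCs alone, where none of its 6 tests passed. Whether the level of a gene, which sets how readily it passes such a test, played a part in these shares was not tested.

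**Figure D1:**
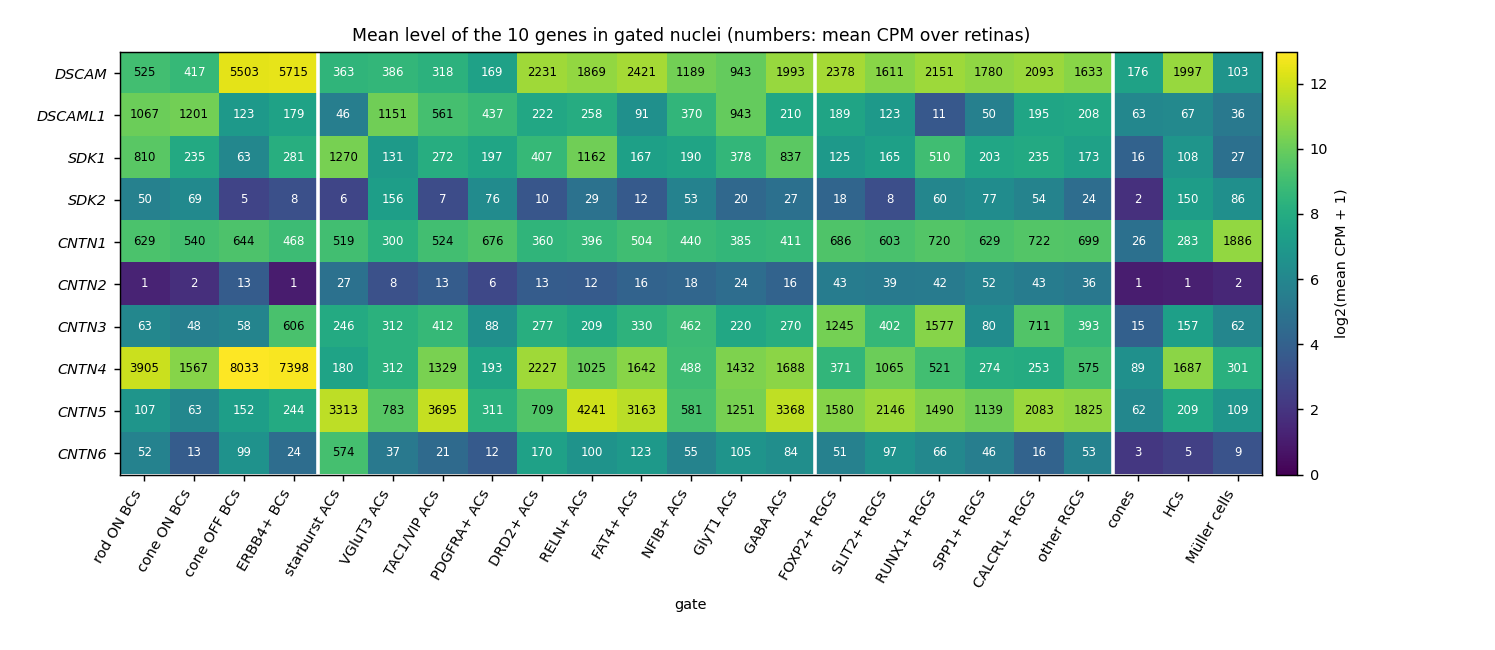
Mean level of the 10 members in 20 marker-gated subtypes and in cones, HCs and Müller cells, coloured by log2(mean CPM + 1) with the mean CPM over retinas printed, 1 row per gene and 1 column per cell group. The cone OFF and ERBB4+ BCs stand out in the DSCAM row, and the ON BCs, VGluT3 ACs and GlyT1 ACs in the DSCAML1 row. Starburst and RELN+ ACs are close together at the top of the SDK1 row, and starburst ACs stand out in the CNTN6 row.

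DSCAM separated OFF from ON BCs. OFF BCs, which hyperpolarise to light, were gated by GRIK1 or NETO1 without any UMI of the ON markers ISL1, TRPM1 or GRM6. DSCAM in cone OFF BCs had a lowest value of 4292, a median of 5625 and a highest of 6286 CPM over 15 retinas. Cone ON BCs lay at 172, 341 and 1174 CPM and rod ON BCs, gated by PRKCA with an ON marker, at 256, 414 and 1074 CPM. Every retina of the OFF group was above every retina of both ON groups. The log2 difference of DSCAM was 2.53 ± 0.10 in cone OFF BCs (adjusted p = 4.24e-30, edgeR's quasi-likelihood test) and 2.40 ± 0.11 in the ERBB4+ OFF BCs, whose level was 5715 ± 748 CPM (n = 13). It was -2.65 ± 0.13 in cone ON and -2.27 in rod ON BCs, and all 4 passed.

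The share of nuclei with a DSCAM UMI also set OFF apart from ON BCs. After each nucleus was thinned to 1000 UMIs, the median share over retinas was 93.3% in cone OFF BCs (range 90.3 to 96.4%), 10.7% in cone ON BCs and 11.8% in rod ON BCs. At the same depth cones had 12.5% and Müller cells 4.32%, so the shares in ON BCs were near that of cones and above that of Müller cells. The levels in ON BCs, with means of 417 and 525 CPM, were above the means of cones (176 CPM) and Müller cells (103 CPM). No order of ON BCs and cones is read from the shares, and the part of free RNA in them was not tested. Thinning left out 804 of 8005 cone OFF, 324 of 5102 cone ON and 315 of 14295 cone nuclei as too shallow. Without thinning the shares were 94.1% in cone OFF BCs, 12.6% in cone ON BCs, 17.2% in rod ON BCs and 29.2% in cones, at median depths of 1820, 2382, 3489 and 3174 UMIs per nucleus.

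A wider OFF group was also formed with DSCAM itself as a marker, from BCs with no ON marker and at least 2 DSCAM UMIs. It held 8017 nuclei, and its DSCAM level of 5875 ± 578 CPM follows from the gate and was not tested. In the same nuclei DSCAML1 was at 71.6 ± 38.7 CPM, SDK2 at 5.17 CPM and CNTN4 at 8352 ± 661 CPM. These nuclei overlap with the cone OFF BCs, and the gate on DSCAM UMIs is not independent of DSCAML1 or SDK2, so nothing further is read from them.

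In ACs, DSCAM was higher in 5 of the 10 groups and lower in 4. The level was 2421 ± 339 CPM in FAT4+ ACs (log2 difference 1.77 ± 0.11), 2231 ± 548 in DRD2+ ACs (1.56) and 1993 ± 211 in GABA ACs (1.41). VGluT3 ACs, which carry a vesicular glutamate transporter, were at 386 ± 132 CPM (-1.24). Starburst ACs, the cholinergic cells of the direction-selective circuit, were at 363 ± 202 CPM (-1.20 ± 0.14), TAC1/VIP ACs at 318 ± 147 (-1.47) and PDGFRA+ ACs at 169 ± 153 (-2.74 ± 0.18). All of these passed. RGC subtypes differed less, from 1611 ± 317 CPM in SLIT2+ RGCs to 2378 ± 634 in FOXP2+ RGCs, with log2 differences between -0.31 and 0.39.

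In BCs, DSCAML1 was highest where DSCAM was low. Its level was 1201 ± 262 CPM in cone ON BCs (lowest 864, median 1188, highest 1797), 1067 ± 266 in rod ON BCs (730, 1069, 1715) and 123 ± 42.2 in cone OFF BCs (71.9, 108, 205). No retina of the ON groups overlapped with the OFF group. The log2 differences were 1.97 ± 0.10, 1.75 and -2.38 ± 0.12, with -1.34 in ERBB4+ BCs, and all passed. Among ACs, VGluT3 ACs (1151 ± 314 CPM, log2 difference 2.18 ± 0.09, adjusted p = 3.64e-49) and the glycinergic GlyT1 ACs (943 ± 261 CPM, 1.84 ± 0.08) were the highest. TAC1/VIP ACs (561 CPM, 1.10) and PDGFRA+ ACs (437 CPM, 0.61) were also higher, and starburst ACs (46.2 CPM, -2.84 ± 0.13) and FAT4+ ACs (91 CPM, -1.71) were lower. The 2 genes did not oppose each other in all ACs. GlyT1 ACs held 943 CPM of DSCAM, with a log2 difference of 0.18 that did not pass, and starburst ACs were low in both genes.

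In VGluT3 ACs the BC markers summed to 1227 to 1908 CPM, against 56.9 to 432 in starburst ACs. CA10 made up most of it at 1546 CPM pooled over retinas. GRIK1 was at 120 CPM, TRPM1 at 4.85 CPM and GRM6 at 0.441 CPM there, against 2754, 792 and 57.2 CPM in cone ON BCs, which had CA10 at 4445 CPM. The part of BC RNA in the VGluT3 values was not tested.

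In RGCs DSCAML1 was low, yet it differed between subtypes. FOXP2+ RGCs (189 ± 61 CPM) and the other RGCs, which carry no subtype marker (208 ± 62.3 CPM), had log2 differences of 1.49 and 1.39. RUNX1+ RGCs held 8 DSCAML1 UMIs in all over 8 retinas, with a median of 0 and a highest value of 48.1 CPM. The fitted log2 difference of -3.70 ± 0.45 (adjusted p = 2.57e-10) rests on those counts, and its size depends on how zeros are smoothed. RUNX1+ RGCs also stand in the mean against which the FOXP2+ and the other RGCs were set, so the sizes of those differences depend on it too.

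Over the 20 subtypes, the mean levels of DSCAM and DSCAML1 on the log2(CPM + 1) scale had a Pearson r of -0.44 and a Spearman rho of -0.58. This is a description over subtypes that share their retinas and libraries. The neighbours in the order of DSCAM levels differed in an exact sign-flip test over paired retinas, after adjustment over 190 neighbour pairs of all members, at 4 places only. These were cone OFF BCs over FAT4+ ACs (15 of 15 retinas, adjusted exact p = 0.00387), SLIT2+ RGCs over NFIB+ ACs (11 of 13, 0.0309), GlyT1 ACs over rod ON BCs (15 of 15, 0.00387) and TAC1/VIP over PDGFRA+ ACs (12 of 13, 0.0366). All other neighbours, among them cone ON and rod ON BCs, were not told apart. Pairs with 8 or fewer retinas could not pass whatever their spread. For CNTN3 in RUNX1+ over FOXP2+ RGCs, 8 of 8 retinas gave an adjusted exact p of 0.0742. For DSCAM these were the pairs with DRD2+ ACs or with RUNX1+, CALCRL+ or SPP1+ RGCs, at 3 to 6 retinas. For DSCAML1 the steps that passed were GlyT1 over TAC1/VIP ACs, TAC1/VIP over PDGFRA+ ACs and NFIB+ over RELN+ ACs.

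**Figure D2:**
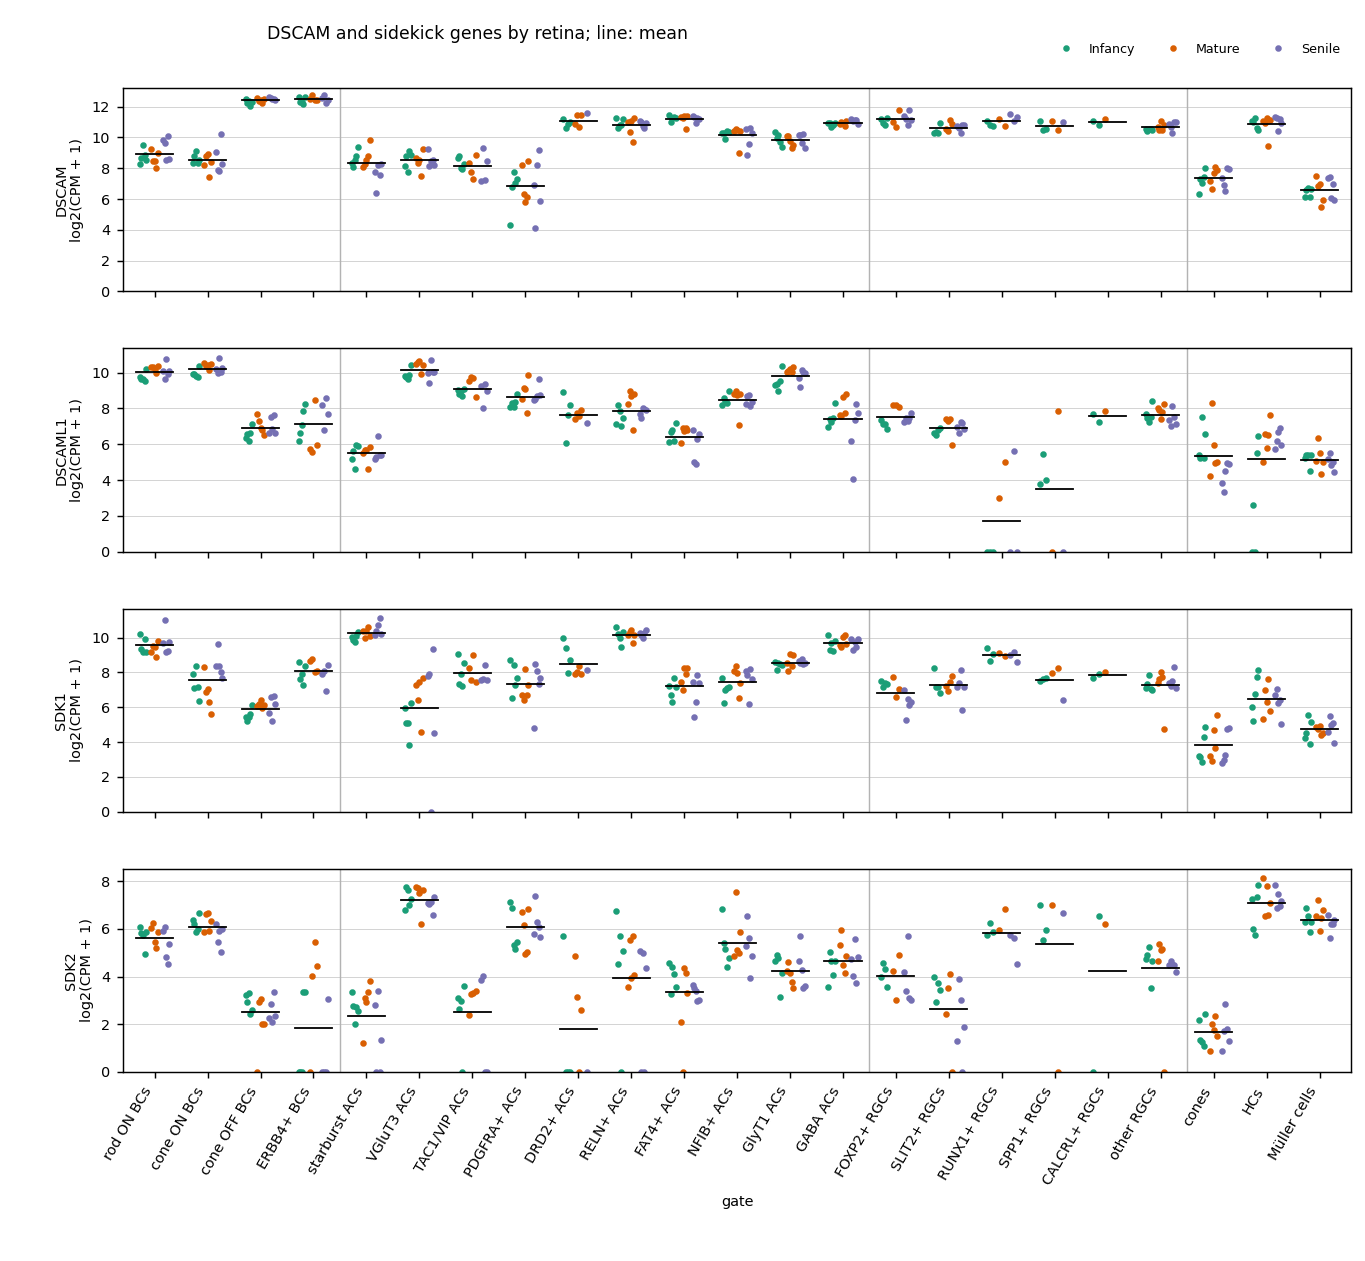
Level of DSCAM, DSCAML1, SDK1 and SDK2 in each retina, as log2(CPM + 1), for each subtype and for cones, HCs and Müller cells, with points coloured by stage and a line at the mean. The cone OFF BC points of DSCAM (4292 to 6286 CPM) lie above all ON BC points (172 to 1174 CPM), and the order is turned for DSCAML1.

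UMIs of DSCAM and DSCAML1 met in the same nucleus less often than independent detection would give. Co-detection is given as the observed number of nuclei with UMIs of both genes over the number expected if the genes were detected independently, per retina, at 1000 UMIs per nucleus and where at least 5 such nuclei were expected. For DSCAM with DSCAML1 the median ratio was 0.236 in BCs (range 0.152 to 0.491), 0.478 in ACs (0.362 to 0.585) and 0.444 in RGCs (0.297 to 0.669), below 1 in 15 of 15 retinas of each class. At 2000 UMIs the BC median was 0.537, with 14 of 14 retinas below 1.

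A class holds subtypes that differ in both genes, so the ratio was also taken within subtypes. It was 0.342 in GlyT1 ACs (15 of 15 retinas below 1), 0.389 in NFIB+ ACs (14 of 14) and 0.416 in GABA ACs (11 of 11). GlyT1 and GABA ACs were gated by lacking the markers of the other AC groups, and NFIB+ ACs by NFIB with SLC6A9 or TCF4. Each may hold several cell types, and the part of such mixing in these ratios was not tested. In GlyT1 ACs the median share of nuclei with a UMI was 31.4% for DSCAM and 50.8% for DSCAML1. In cone OFF BCs the ratio was 0.469 (14 of 14), but it rests on few DSCAML1 nuclei, with a median share of 6.94% against 2.81% in cones (0.534 to 23.1% over retinas) and 1.92% in Müller cells. The part of free RNA or of stray ON BCs in the cone OFF value was not tested. The ratio was closer to 1 in the ON groups, at 0.780 in cone ON and 0.809 in rod ON BCs (13 of 13 each).

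The other pairs of the 4 genes were mixed. In BCs, DSCAM with SDK2 had a median ratio of 0.295 (14 of 14 retinas below 1) and SDK1 with SDK2 0.219 (9 of 9), whereas DSCAML1 with SDK2 was at 1.60, above 1 in all 14 retinas. In ACs, DSCAM with SDK1 was at 0.814 (15 of 15 below 1) and SDK1 with SDK2 at 0.690 (13 of 15), and DSCAM with SDK2 was at 0.990. In RGCs, DSCAM with SDK1 was at 0.997 and DSCAML1 with SDK1 at 1.20, which turned to 0.980 without the nuclei of most UMIs. Both lay on either side of 1 across retinas, and no direction is read from them.

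**Figure D3:**
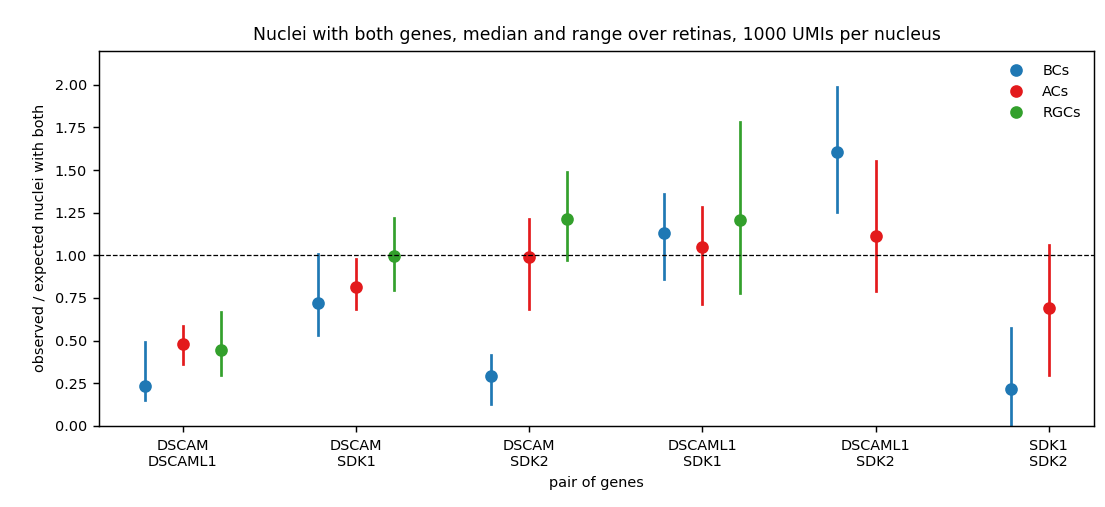
Observed over expected number of nuclei with UMIs of both genes, for the pairs of DSCAM, DSCAML1, SDK1 and SDK2 in BCs, ACs and RGCs at 1000 UMIs per nucleus, with the median over retinas as a point, the range as a line and independence at 1 as a dashed line. The DSCAM and DSCAML1 ranges lie below 1 in all 3 classes, and the DSCAML1 and SDK2 range lies above 1 in BCs.

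SDK1 was highest in starburst ACs. Their level was 842 CPM in the lowest, 1171 in the median and 2209 in the highest retina, with a log2 difference of 2.17 ± 0.11 (adjusted p = 3.96e-40). RELN+ ACs (1162 ± 219 CPM, 1.87 ± 0.12) and GABA ACs (837 ± 176 CPM, 1.40) followed. Starburst and RELN+ ACs were not told apart in the exact paired test, and RELN+ ACs were above GABA ACs in 14 of 15 retinas (adjusted exact p = 0.0182). At 1000 UMIs, 53.3% of starburst nuclei had an SDK1 UMI and 0.885% of cones. VGluT3 ACs (131 ± 162 CPM, -1.98), NFIB+ ACs (190 ± 82.2 CPM, -1.15) and FAT4+ ACs (167 ± 78.3 CPM, -1.03) were lower.

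Among BCs, SDK1 was highest in rod ON BCs. Rod ON BCs had a lowest value of 466.4, a median of 701 and a highest of 2038 CPM, and cone ON BCs 47.2, 202 and 779 CPM, so the ranges overlapped. Cone OFF BCs lay below the lowest rod ON value in every retina, at 35.8 to 98.9 CPM. The log2 difference was 2.34 ± 0.15 in rod ON BCs (adjusted p = 3.57e-20), -2.29 ± 0.18 in cone OFF BCs and -0.36 in cone ON BCs (adjusted p = 0.0986). AC markers summed to a median of 156 CPM in rod ON, 269 in cone ON and 204 in cone OFF BCs. In RGCs, RUNX1+ RGCs were the highest at 510 ± 91.7 CPM (1.56 ± 0.16), and FOXP2+ RGCs the lowest at 125 ± 51.4 CPM (-0.71).

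SDK2 peaked in VGluT3 ACs, at 72.9 CPM in the lowest, 151 in the median and 216 in the highest of 15 retinas, from 358 UMIs in all. The log2 difference was 3.19 ± 0.16 (adjusted p = 8.27e-40). PDGFRA+ ACs (75.9 ± 42.8 CPM, 1.83) and NFIB+ ACs (52.9 ± 46.1 CPM, 1.03) were also higher. Starburst ACs, where SDK1 was at its highest, had 5.53 ± 3.81 CPM of SDK2 (-1.92). In BCs, SDK2 followed DSCAML1, with 69.1 ± 19.9 CPM in cone ON (2.29 ± 0.13), 50.2 ± 16.2 in rod ON (1.47) and 5.32 ± 2.58 in cone OFF BCs (-2.57 ± 0.25). The lowest cone ON retina, at 32 CPM, was above the highest cone OFF retina, at 9.16 CPM. SPP1+ RGCs (77.2 CPM, 1.00) and RUNX1+ RGCs (60.2 CPM, 1.19) were higher and SLIT2+ RGCs (7.64 CPM, -2.17) lower. These levels are low: at 1000 UMIs, 15.5% of VGluT3 and 6.39% of cone ON nuclei had an SDK2 UMI, against 0.211% of cones and 8.10% of Müller cells.

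CNTN4 was highest in the OFF BCs. Cone OFF BCs were at 8033 ± 656 CPM (log2 difference 1.31 ± 0.08), ERBB4+ BCs at 7398 ± 1089 (0.91), rod ON BCs at 3905 ± 520 (-0.19, adjusted p = 0.0764) and cone ON BCs at 1567 ± 575 (-2.02 ± 0.10). The highest cone ON retina, at 2645 CPM, was below the lowest rod ON retina, at 2858, and the highest rod ON retina, at 4620, was below the lowest cone OFF retina, at 6888. ERBB4+ BCs exceeded rod ON BCs in 13 of 13 paired retinas (adjusted exact p = 0.00928). In ACs, CNTN4 was higher in DRD2+ (2227 ± 824 CPM, 1.68), FAT4+ (1.29) and GABA ACs (1.27) and lower in starburst (180 ± 68.8 CPM, -2.17) and PDGFRA+ ACs (193 ± 152 CPM, -2.17). SLIT2+ RGCs stood out in their class at 1065 ± 146 CPM (1.56 ± 0.09), and CALCRL+ RGCs, measured in 3 retinas, were at 253 ± 67.4 CPM (-1.21).

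CNTN3 picked out the ERBB4+ BCs and a pair of RGC groups. ERBB4+ BCs had 273 CPM in the lowest, 570 in the median and 902 in the highest of 13 retinas, and every other BC group stayed at or below 141 CPM. The log2 difference was 3.42 ± 0.14 (adjusted p = 7.72e-29). AC markers summed to a median of 541 CPM in ERBB4+ BCs, the highest of the BC groups, and CNTN3 was at 327 CPM in ACs, so the part of AC RNA in this value was not tested. RUNX1+ RGCs were at 1577 ± 295 CPM (1.93 ± 0.10, n = 8) and FOXP2+ RGCs at 1245 ± 159 (1.62 ± 0.09, n = 12). SPP1+ RGCs, in 6 retinas, were at 79.5 ± 81.9 CPM (-3.38 ± 0.20). The lowest RUNX1+ retina, at 1216 CPM, was above the highest SLIT2+ retina, at 633 CPM.

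CNTN5 levels differed widely among the AC groups, with 5 of 10 called higher and 4 lower. RELN+ (4241 ± 1486 CPM, log2 difference 1.56), TAC1/VIP (3695 ± 946, 1.47), starburst (3313 ± 896, 1.38 ± 0.15), GABA (3368 ± 686, 1.29) and FAT4+ ACs (3163 ± 581, 1.23) were all higher than the mean of the other ACs. The glycinergic NFIB+ ACs (581 ± 344 CPM, -1.63), VGluT3 ACs (783 ± 521 CPM, -1.22), PDGFRA+ ACs (311 ± 243 CPM, -2.61) and DRD2+ ACs (709 ± 525 CPM, -1.14, and 0.0432 in senile retinas alone) were lower. FAT4+ ACs were above SLIT2+ RGCs, the next in the order, in 13 of 13 retinas (adjusted exact p = 0.00928). SLIT2+ RGCs (2146 ± 344 CPM, 0.52) were higher than other RGCs and SPP1+ RGCs (1139 ± 225 CPM, -0.68) lower. In the 4 BC groups the means were 63.4 to 244 CPM and single retinas ran from 0 to 1531 CPM, and the AC markers were also uneven there.

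CNTN6 peaked in starburst ACs. Its level there was 385 CPM in the lowest, 560 in the median and 794 in the highest retina, with a log2 difference of 3.41 ± 0.11 (adjusted p = 9.26e-63). DRD2+ ACs followed at 170 ± 90.9 CPM (1.29), below starburst ACs in 9 of 9 paired retinas (adjusted exact p = 0.0495). PDGFRA+ ACs (11.9 CPM, -2.86) and TAC1/VIP ACs (21.4 CPM, -1.96) were lower. In BCs, CNTN6 was at 98.5 ± 32.5 CPM in cone OFF (2.05 ± 0.15) and 12.7 ± 13.7 CPM in cone ON BCs (-2.24), and SLIT2+ RGCs were the highest RGCs at 96.9 ± 26.4 CPM (1.22).

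CNTN1, which is widespread in neurons and glia, had the flattest profile, from 299.5 ± 112 CPM in VGluT3 ACs to 722 ± 72.6 CPM in CALCRL+ RGCs. Its subtype differences that passed lay between -0.70 (VGluT3 ACs) and 0.70 (PDGFRA+ ACs), and no neighbours in its order were told apart. Pairs with 8 or fewer retinas could not pass the exact test. CNTN2 ran from 0.994 CPM in ERBB4+ BCs to 52.3 ± 15.3 CPM in SPP1+ RGCs, with means of 35.7 to 52.3 CPM over the RGC groups. The CALCRL+ and SPP1+ means come from the Cell Ranger 6.1.2 set alone, and the other subtype means from both sets.

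**Figure D4:**
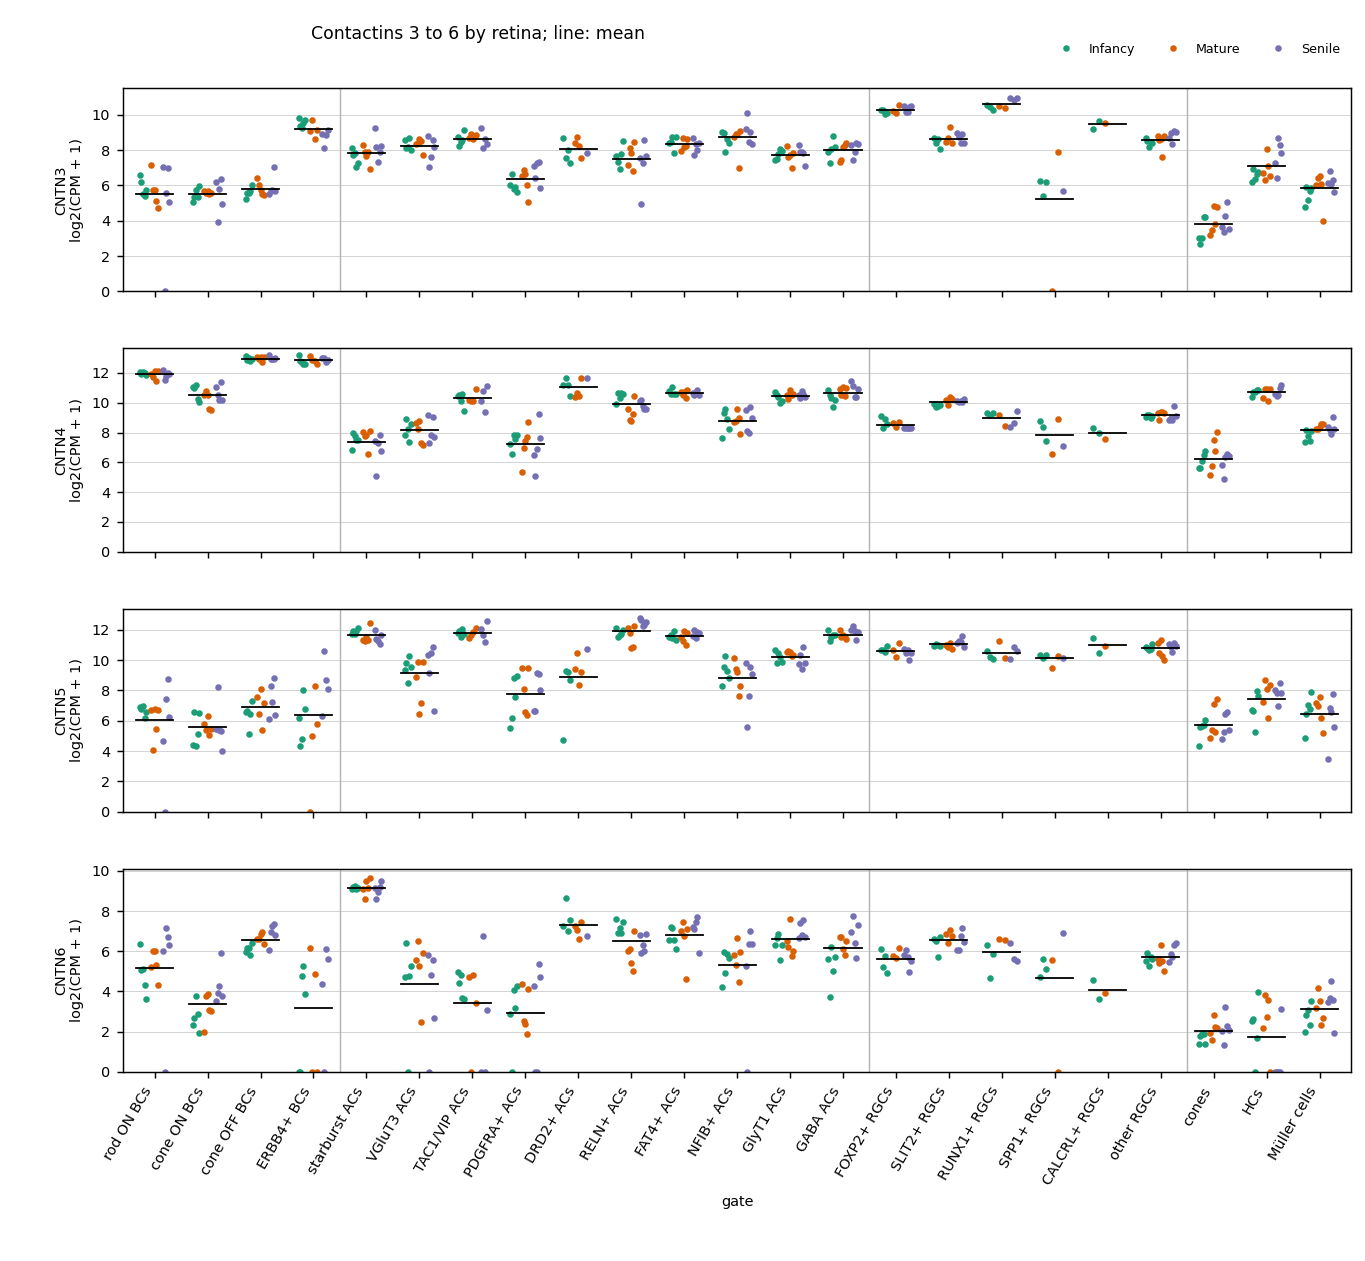
Level of CNTN3, CNTN4, CNTN5 and CNTN6 in each retina, as log2(CPM + 1), for each subtype and for cones, HCs and Müller cells, with points coloured by stage and a line at the mean. CNTN3 in ERBB4+ BCs (273 to 902 CPM) and CNTN6 in starburst ACs (385 to 794 CPM) lie above the other groups of their class.

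The calls of all members are given together for 4 groups, chosen after their values were seen. Over all features, 3630 of 6569 passed in starburst ACs and 2287 of 6569 in VGluT3 ACs. In cone OFF BCs 3040 of 7260 features passed, and in RUNX1+ RGCs 1008 of 7857. Starburst ACs were higher in SDK1, CNTN1, CNTN5 and CNTN6 and lower in DSCAM, DSCAML1, SDK2 and CNTN4. VGluT3 ACs were higher in DSCAML1, SDK2 and CNTN3 and lower in DSCAM, SDK1, CNTN1, CNTN4, CNTN5 and CNTN6. Cone OFF BCs were higher in DSCAM, CNTN1, CNTN4, CNTN5 and CNTN6 and lower in DSCAML1, SDK1, SDK2 and CNTN3. RUNX1+ RGCs were higher in DSCAM, SDK1, SDK2 and CNTN3 and lower in DSCAML1. With all retinas kept, 5 of these calls were lost under another setting. With a stricter gate these were CNTN3 (adjusted p = 0.12) and CNTN6 (adjusted p = 0.0936) in VGluT3 ACs and DSCAML1 in RUNX1+ RGCs (adjusted p = 0.088). Their log2 differences in the main fit were 0.35, -1.11 and -3.70. CNTN5 in cone OFF BCs (0.46) lost its call in DESeq2 (adjusted p = 0.105). DSCAM in RUNX1+ RGCs (0.24) lost it with no filter on low counts (adjusted p = 0.234). Between members, the mean levels over the 20 subtypes had the largest Pearson r in size for CNTN2 with CNTN5 (0.71, Spearman rho 0.49), DSCAML1 with CNTN2 (-0.57, rho -0.58) and CNTN3 with CNTN5 (0.50, rho 0.30). CNTN2 was low in most groups, and the subtypes share their retinas and libraries.

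Genes with profiles most like a member over the 20 subtypes were sought among features reaching 50 CPM in at least 1 subtype. They were NELL1 (Pearson r = 0.742) and DLC1 (0.734) for DSCAM, MORC2 (0.865) and RCOR1 (0.859) for DSCAML1, TMEM64 (0.641) and FAM126A (0.590) for SDK1, and CDC42BPA (0.760) and DENND1A (0.713) for SDK2. Among the contactins they were PCMT1 (0.851) and VCP (0.849) for CNTN1, ANKRD13B (0.907) and RBFOX3 (0.904) for CNTN2, and PLPPR5 (0.808) and PATJ (0.771) for CNTN3. ADAMTSL1 (0.848) and ITSN2 (0.804) were nearest to CNTN4, the cadherin CDH18 (0.935) and STAMBPL1 (0.932) to CNTN5, and the cadherin CDH6 (0.794) and PHLPP1 (0.773) to CNTN6. For each member these are the 2 highest r among all such features, and none was tested. Some peaked in another group than the member: NELL1 in RUNX1+ RGCs and DLC1 in DRD2+ ACs, where DSCAM peaked in ERBB4+ BCs. Others peaked in the same group, as CDH6 and PHLPP1 did with CNTN6 in starburst ACs.

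Of 20 genes listed as partners of the members, 19 could be tested between classes, and 50 of their 57 tests passed, 35 higher and 15 lower. Over all features 67.4% of these tests passed, so most features differ between the classes and nothing is read from the count. CNTNAP2, a contactin-associated protein of axons, was the largest in RGCs (4.23 ± 0.10) and was also higher in ACs (2.94). CNTNAP5 was the largest in BCs (3.35 ± 0.09) and was higher in RGCs (2.88). Netrin-1 (NTN1) led in ACs at 3.97 ± 0.13, and its receptor DCC was higher in all 3 inner classes, by 3.20 in RGCs, 2.33 in BCs and 2.16 in ACs, the BC value being named after the values were seen. In BCs, NFASC (2.49) and PTPRZ1 (2.47) were higher and CHL1 (-2.53) lower.

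Few stage differences of the members passed the test. In simulated counts the stage fits found 48% of 2-fold changes in BCs, 43% in ACs and 53% in RGCs. A test that did not pass therefore does not show a steady level. In BCs, ACs and RGCs, each stage pair was tested with the Cell Ranger version in the model, and 1 of 90 member tests passed. It was CNTN6 in BCs, senile minus infant, where 1.36% of features passed. Pooled over the 3 classes, 1.22% of tests passed for senile minus infant. No member passed for mature minus infant, where 0.801% of tests over the 3 classes passed, or for senile minus mature (0.00209%). The median log2 difference of the members, senile minus infant, was 0.15 in BCs, 0.06 in ACs and -0.02 in RGCs.

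CNTN6 in BCs was 35.7, 28.6, 36.7, 26.0 and 32.0 CPM in the infant retinas. It was 39.5, 45.7, 61.5, 46.1 and 35.9 CPM in the mature and 40.4, 54.6, 78.1, 99.1 and 59.1 CPM in the senile retinas. All senile values were above all infant values. The log2 difference was 0.95 ± 0.22 (adjusted p = 0.0453, edgeR's quasi-likelihood test), 0.36 within the Cell Ranger 6.1.2 retinas (adjusted p = 0.515) and 1.41 within the 7.0.1 retinas (adjusted p = 0.129). When each retina was left out in turn, the value ran from 0.75, without Senile 4, to 1.14, and 6 of 15 fits kept the call. It was lost without Infancy 2, 4 or 5, Mature 1, 2 or 4, or Senile 2, 3 or 4 (adjusted p = 0.056 to 0.176). Leaving out the nuclei with the most UMIs gave 1.00 (adjusted p = 0.0584).

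The summed level of the 8 AC markers in the same BC nuclei was 147 to 233 CPM in infant, 193 to 296 in mature and 192 to 541 in senile retinas. CNTN6 was at 152 CPM in ACs, and the part of AC RNA in the BC difference was not tested. Within cone OFF BCs, the BC group with the most CNTN6, the log2 difference of 0.71 did not pass. CNTN6 in ACs was 147, 152, 157, 134 and 144 CPM in infant and 152, 158, 142, 182 and 183 CPM in senile retinas. The difference between ACs and BCs in the stage effect was itself -0.91 on the log2 scale (adjusted p = 0.0478), the only member among 30 such tests to pass (0.532% of features for this pair of classes, 0.322% over the 3 pairs). Leaving out each retina in turn gave -1.04 to -0.73, with adjusted p from 0.0044 to 0.333. The call was kept without Mature 1, 4 or 5 or Senile 1, and was lost without any of the 11 others. In the same edgeR interaction fit, CNTN6 for RGCs against BCs was of like size at -0.92 but did not pass (adjusted p = 0.108). For RGCs against ACs it was -0.01.

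The other members showed no stage difference that passed in any class. The largest member difference in BCs, senile minus infant, was CNTN5 at 1.01 ± 0.45 (adjusted p = 0.474, edgeR's quasi-likelihood test), above that of CNTN6. Between classes CNTN5 was higher in ACs (4.02) and lower in BCs (-1.84), and the part of AC RNA in its BC value was not tested. DSCAM in BCs was 1780 to 2435 CPM in infant, 1852 to 2395 in mature and 2418 to 2996 in senile retinas (0.29, adjusted p = 0.259), and the lowest senile value lay just under the highest infant value. SDK2 in BCs was 32.1 to 45.4 CPM in infant and 20.2 to 38.6 CPM in senile retinas (-0.42, adjusted p = 0.398). DSCAML1 in BCs was 537 to 853 CPM in infant, 741 to 964 in mature and 631 to 1024 in senile retinas.

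Within the subtypes, 16 had enough retinas in each stage. Of 137 member tests, senile minus infant, 1 passed, DSCAM in starburst ACs, where 0.884% of features passed (0.534% pooled over the subtypes). Its level was 317, 268, 369, 440 and 658 CPM in infant retinas and 276, 306, 371, 438 and 919 CPM in mature retinas. The senile retinas were at 215, 82.9, 295, 186 and 304 CPM, and overlapped with the infant values. Within each Cell Ranger version (the first 3 infant and first 2 senile values, and the others), all senile values were below all infant values. The log2 difference was -1.12 ± 0.25 (adjusted p = 0.0319), and it lost its call with a stricter gate (-0.57, adjusted p = 0.731) and with stage alone in the model (-0.96, adjusted p = 0.414). It was also lost without Infancy 1, 3 or 5 or Senile 2, 3 or 4, with values from -1.17 to -1.02. At 1000 UMIs the median share of starburst nuclei with a DSCAM UMI was 12.2% (3.96 to 36.3% over retinas), near the 12.5% of cones, at unthinned median depths of 3624 and 3174 UMIs. Other AC groups held up to 2421 CPM of DSCAM (FAT4+ ACs), and the part of free RNA in this difference was not tested. BC markers in starburst ACs summed to 101 to 386 CPM in infant, 56.9 to 432 in mature and 99.4 to 262 in senile retinas.

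**Figure D5:**
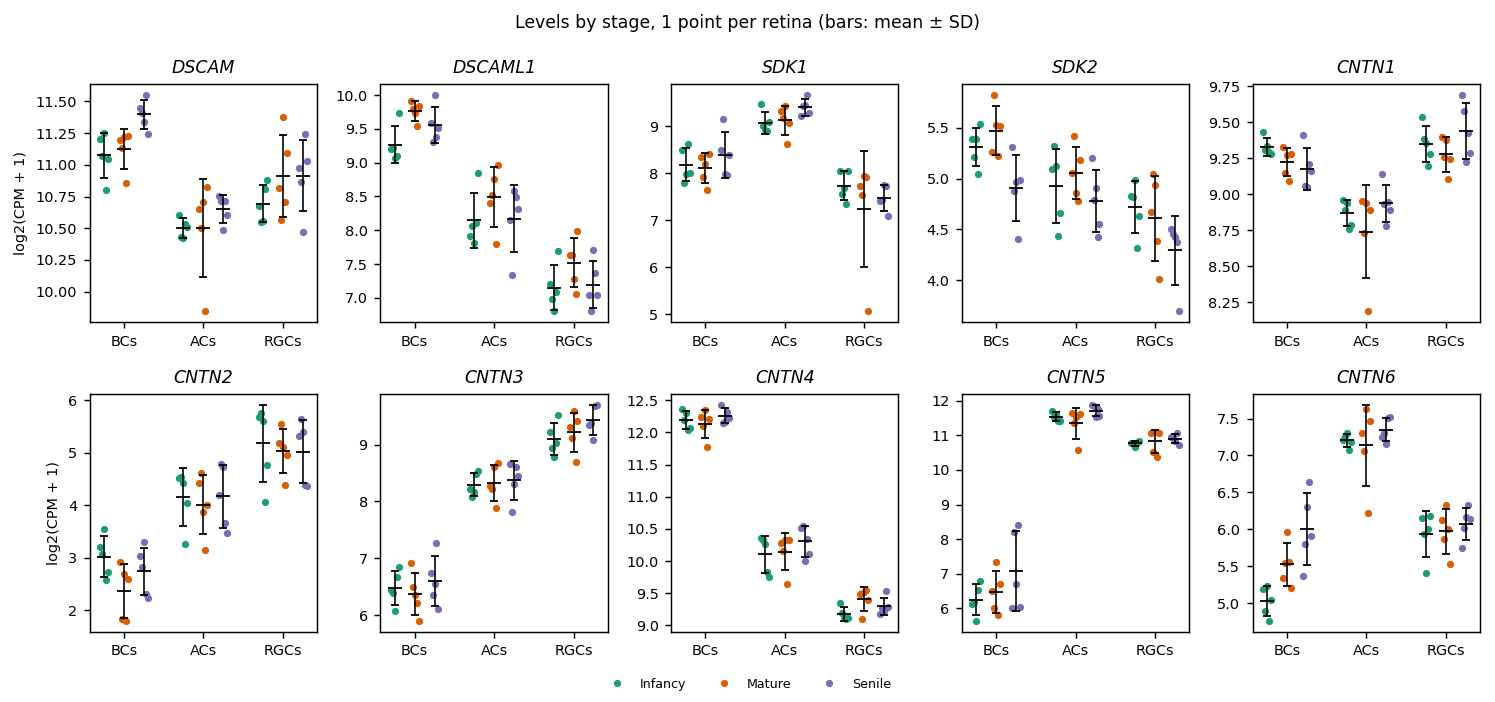
Level of each of the 10 members as log2(CPM + 1) in BCs, ACs and RGCs, 1 point per retina coloured by stage, with bars at the mean ± SD of each stage. CNTN6 in BCs is higher in the 5 senile retinas (40.4 to 99.1 CPM) than in the 5 infant retinas (26.0 to 36.7 CPM), while the stages overlap for CNTN6 in ACs.

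Of the partners, DCC was the 1 gene to pass for stage, in 2 of 177 tests. That count is near the share over all features in the 3 classes, 1.22% for senile minus infant, 0.801% for mature minus infant and 0.00209% for senile minus mature, and nothing is read from it about the list. DCC in BCs was 651, 633, 672, 525.7 and 604 CPM in infant, 915, 892, 1027, 739 and 980 in mature and 1129, 1076, 905, 1215 and 889 in senile retinas. Infant values lay below all others. The log2 difference was 0.73 for senile (adjusted p = 0.00147) and 0.57 for mature against infant retinas (adjusted p = 0.0208). The first kept its call without each of the 15 retinas in turn. The second lost it without Infancy 2, 4 or 5 or Mature 1, 3 or 5 (0.50 to 0.59, adjusted p = 0.0545 to 0.105) and with stage alone in the model (adjusted p = 0.0501). Mature minus infant, it was 0.46 within the 6.1.2 retinas (adjusted p = 0.0583) and 0.71 within the 7.0.1 retinas (adjusted p = 0.367). Senile minus infant, it was 0.69 within the Cell Ranger 6.1.2 retinas (adjusted p = 0.00555) and 0.80 within the 7.0.1 retinas (adjusted p = 0.311). It was 1.00 within cone OFF BCs, senile minus infant (adjusted p = 2.08e-05). The senile minus infant difference was smaller in RGCs than in BCs for DCC (-0.72, adjusted p = 0.013). For CNTNAP2 it was smaller in ACs (-1.02, adjusted p = 0.017) and in RGCs (-0.996, adjusted p = 0.0248) than in BCs. These were 3 of 60 partner tests, beside 0.322% of features over the 3 pairs of classes. CNTNAP2 passed for stage in no class. Between classes it was higher in ACs (2.94) and RGCs (4.23) and lower in BCs (-1.87), and the part of AC or RGC RNA in its BC value was not tested.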

How the data were processed

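Nuclei of 15 TS retinas (5 Infancy, 5 Mature, 5 Senile) were sequenced on the 10x Genomics platform, and the authors used Cell Ranger with the TS_3.0 genome. Its version is given in the file headers as 6.1.2 (Infancy 1 to 3, Mature 1 and 2, Senile 1 and 2) or 7.0.1 (the others), and in the labels as 5.0.1 or 7.0.1 with the same split. Whether intronic reads were counted is not given in the sources used here, and the version stands in the stage models for that reason. The values deposited by the authors are raw UMI counts per feature and barcode, and no normalised value was used.

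A barcode was kept if its gene count lay above 200 and below 6000 and mitochondrial UMIs made up less than 5%. Classes and subtypes were gated by marker UMIs. No doublet caller was run, and 24473 nuclei with markers of several classes and 6540 with a low margin were left out. The senile, mature and infant groups follow the labels, which give no sex. UMIs were summed per retina and group (at least 20 nuclei for a class, 10 for a subtype).

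Features were tested with edgeR 4.0.16 in R 4.3.3 (TMM scaling, filter on low counts, quasi-likelihood test), with adjustment over all features and a threshold of 0.05. Stage models held stage and Cell Ranger version, and models of class and subtype held the retina as a block. SEs were derived from the log2 difference and its F statistic. Exact sign-flip tests were two-sided. The scripts were tested on simulated counts. Of 2-fold stage changes put in, 48% were found in BCs, 43% in ACs, 53% in RGCs, 48% in starburst ACs and 38% in cone OFF BCs. Of 4-fold changes, 89% were found in BCs, 84% in ACs, 89% in RGCs, 93% in starburst ACs and 92% in cone OFF BCs. Levels in the text are CPM, with a pseudocount of 1 where log2 values are shown. Python 3.11.15 was used for the gates and levels. Intervals over retinas describe spread, and counts of nuclei or UMIs carry counting error beside it.

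The 10 members were followed in every comparison, and not each is named in each. Of the 20 partner genes at most 4 per comparison are named, by size among those that passed. The members, lists and tests were chosen with earlier results of these data known. Alternatives were DESeq2 1.42.0, RLE scaling, no filter, stage alone, the replicate number as a block, a stricter gate, leaving out nuclei above the 95th percentile of UMIs or the feature LINC-FRMD8-1, single versions or stages, and leaving out each retina. Leaving out each retina for DSCAM in starburst ACs and for the class difference of CNTN6 was added after seeing the data.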

Additional observations from a re-analysis of the deposited data

Results flagged for a closer look

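In 6 of 90 groups of 5 retinas (10 members, 3 classes and 3 stages), a single retina lay far from the other 4, and chance alone gives about 1 group in 20. DSCAM in BCs was 1852 CPM in Mature 4, below the 2240 to 2395 CPM of the other mature retinas. DSCAML1 was high in Infancy 5 in both BCs and ACs, at 853 CPM against 537 to 597 in BCs and at 459 CPM against 223 to 274 in ACs. SDK1 in RGCs was 32.3 CPM in Mature 5, from 15 UMIs, against 186 to 246 CPM. SDK2 in RGCs was 11.9 CPM in Senile 5, from 23 UMIs, against 19.8 to 21.7 CPM. CNTN4 in RGCs was 737 CPM in Senile 4, against 579 to 620 CPM.

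The senile minus infant difference of CNTN6 was smaller in ACs than in BCs by an edgeR interaction test, with a difference of -0.91 on the log2 scale (adjusted p = 0.0478). It was the only one of 30 member tests to pass. Of 15 fits that each left out 1 retina, 4 kept the call, and the adjusted p reached 0.333. For RGCs against BCs the difference was -0.92 in the same interaction fit and did not pass (adjusted p = 0.108).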

How the results depend on the processing

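The count of 129 member calls between subtypes ran from 92 (senile retinas only) to 140 (no filter on low counts), and that of 27 between classes from 23 to 29. For senile minus infant retinas within classes the 1 call became 2 with no filter, and 0 without the nuclei of most UMIs, in the 6.1.2 retinas alone or in the 7.0.1 retinas alone, and 0 to 1 when each retina was left out. Mature minus infant, 0 calls became 1 with no filter and 2 in the 6.1.2 retinas alone, and stood at 0 to 1 when each retina was left out (1 without Infancy 5). Senile minus mature, 0 became 1 with no filter. With no filter, the class differences in stage went from 1 to 4 and the stage calls within subtypes from 1 to 11. The latter were 0 with the stricter gate and 0 with stage alone. The cause of these shifts was not tested.

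With the replicate number as a block, stage calls were 1, 0 and 0 in the classes and 2 within subtypes, and DCC in BCs, mature minus infant, lost its call (0.54, adjusted p = 0.0899). The numbers were not taken as pairs: same-numbered retinas come from different animals, and 4 to 6 of 15 retinas correlated best with their own number.

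Each of the 129 called subtype differences was refitted under every other setting in which it could be tested. Of these refits, 1114 kept the direction and side of the threshold, 156 lost the threshold and 5 reversed. The reversed ones were CNTN5 in DRD2+ ACs (0.0432, senile only), CNTN4 in RELN+ ACs (-0.0571, mature only), SDK1 in SLIT2+ RGCs (0.0429, senile only), SDK2 in FOXP2+ RGCs (0.0900, 7.0.1 only) and CNTN4 in the other RGCs (-0.189, 7.0.1 only). Co-detection of DSCAM with SDK1 in RGCs crossed 1 at 2000 UMIs (1.00) and without the nuclei of most UMIs (1.00), as did DSCAM with SDK2 in ACs (1.06 and 1.08) and, without those nuclei, DSCAML1 with SDK1 in RGCs (0.980). At 2000 UMIs DSCAM with DSCAML1 moved to 0.537 in BCs and 0.630 in ACs, and DSCAM with SDK2 in BCs to 0.421. For senile minus mature in BCs and RGCs, 0 features passed in edgeR, an unadjusted p under 0.05 was met by 1540 and 1010, and calls by DESeq2 numbered 112 and 8. Small groups of RGCs, with 3 to 8 retinas for CALCRL+, SPP1+ and RUNX1+, limit what could be seen there.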
